A study of Mus musculus with 48 samples.

Results

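The 33 genes described here encode the enzymes, transporters and regulators of glycolysis together with genes of the transcriptional response to low oxygen. They were taken by symbol from a fixed list, and all 33 were found among the 34932 genes counted. By role, 4 encode glucose or lactate transporters, 9 act in the upper steps of glycolysis from hexokinase to triosephosphate isomerase, 6 act in the lower steps from glyceraldehyde-3-phosphate dehydrogenase to pyruvate kinase, and 1 encodes lactate dehydrogenase A. A further 3 encode regulators of glycolytic flux, 3 belong to the sensing of oxygen (Hif1a, Egln1 and Egln3), and 7 are targets of the hypoxia response (Vegfa, Bnip3, P4ha1, P4ha2, Ndrg1, Ddit4 and Adm).

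RNA was sequenced from sorted cells of C57BL/6J mice that carried a subcutaneous B16F10 melanoma, a transplanted mouse tumor line of pigmented cells. Live CD4+ T cells, live CD8+ T cells and live CD45+CD4-CD8- leukocytes were sorted from the tumor, where the T cells are called TILs (tumor-infiltrating lymphocytes), and from the inguinal tumor-draining lymph nodes (TDLNs). The mice were either Yap-cKO, which carried loxP-flanked Yap on both alleles, a loxP-stop EYFP reporter (LSL-EYFP) and the CD4-Cre transgene, or wild-type (WT) littermates. The Cd4 promoter drives Cre from the CD4+CD8+ stage of thymocytes, so Yap is removed in the CD4+ and CD8+ lineages and the CD45+CD4-CD8- cells are not targeted as such. There were 12 groups, each cell population in each tissue and genotype, with 4 libraries in each and 48 in all. The labels do not say that the 4 libraries of a group came from separate animals, so the p-values below measure the spread between these libraries. Per the study's methods the mice were young adults.

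Glycolysis splits glucose into pyruvate and yields ATP without oxygen, and activated T cells raise it to supply growth and effector function. When oxygen is low, the prolyl hydroxylases Egln1 and Egln3 no longer mark the factor Hif1a for destruction, and Hif1a then binds short sites in DNA and turns on most glycolytic genes together with Vegfa, Bnip3 and other targets. The same program is active in many tumor cells and in macrophages of poorly perfused tissue, so sorted tumor libraries can carry these transcripts from several kinds of cell. In bulk libraries, fewer cells of a type and less RNA per cell cannot be told apart.

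The core letters of the site that Hif1a binds are GCGTG or ACGTG, read on either strand as CACGC or CACGT. Below are stretches of 60 bases from 5 promoters (RefSeq, GRCm38.p6, given on the strand of the gene, 5′ to 3′), shown because these members differed between the genotypes in CD4+ TILs and differ in how many such letters lie near their start. Capitals mark the core letters.
Hk2 (chr6:82774455-82774514, minus strand): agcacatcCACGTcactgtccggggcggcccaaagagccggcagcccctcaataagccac
Bnip3 (chr7:138909569-138909628, minus strand): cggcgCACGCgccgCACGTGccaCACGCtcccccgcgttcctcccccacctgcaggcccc
P4ha2 (chr11:54100812-54100871, plus strand): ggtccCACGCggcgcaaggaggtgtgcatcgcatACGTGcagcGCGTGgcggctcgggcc
Adm (chr7:110627562-110627621, plus strand): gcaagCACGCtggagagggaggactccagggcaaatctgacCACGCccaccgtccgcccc
Egln3 (chr12:54204049-54204108, minus strand): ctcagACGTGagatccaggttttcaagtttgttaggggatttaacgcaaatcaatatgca
The stretch of Bnip3 holds 4 of the 5 matches in its window of 300 bases, since CACGTG is read on both strands, whereas that of Egln3 holds the 1 match in its window. Windows ran from 250 bases before the start to 50 after it. A match was found in 36 of the 45 windows of the members and in 43.8% of all 32851 windows, and in at least 1 window for 28 of the 31 members with a promoter entry, against 46.7% of 27025 genes. Gpi1, Tpi1 and Eno2 had no match, and no entry was used for Slc2a3 and Ndrg1. A match describes the letters of the sequence and does not show that the site is bound.

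Libraries held between 12656510 and 24213892 counts assigned to genes, and 3 counts corresponded to 0.124 to 0.215 CPM (counts scaled by a library total that was adjusted by TMM, which sets the bulk of genes level between libraries). The targeted gene Yap1 was at 14.2 to 25.4 CPM in WT CD4+ TILs and 1.7 to 5.7 CPM in Yap-cKO CD4+ TILs, at 12.6 to 25.2 and 2.43 to 6.48 CPM in CD8+ TILs, and between 1.1 and 4.36 CPM in TDLN libraries, where the genotypes overlapped. In tumor CD45+CD4-CD8- cells it was at 2.8 to 5.4 CPM in WT and 1.48 to 2.09 CPM in Yap-cKO, also without overlap. RNA of other cells differed between the genotypes in the tumor. The summed level of 10 melanoma genes was 5550 to 16730 CPM in WT and 181 to 2453 CPM in Yap-cKO CD4+ TILs, 3866 to 13555 and 45.1 to 2639 CPM in CD8+ TILs, 1118 to 1843 and 120 to 520 CPM in tumor CD45+CD4-CD8- cells, and at most 26 CPM in any TDLN library. All 10 of these genes were above 3 counts in every WT tumor library. The melanoma sums did not overlap between the genotypes in any tumor population, so deletion and melanoma RNA cannot be told apart for Yap1 there. The sum of T-cell lineage genes was lower in WT than in Yap-cKO TILs without overlap, at 1496 to 6060 against 6761 to 10973 CPM in CD4+ and 1673 to 5216 against 6022 to 7003 CPM in CD8+. Yap-cKO CD4+ TIL replicate 3 stood apart, with 93.5 CPM of Ptprc, which encodes CD45, against 985 to 1345 in the other 3. Y-chromosome genes were on in 18 libraries, those numbered 1 to 3 of every WT group, and off in WT replicate 4 and in all Yap-cKO libraries, so sex and genotype cannot be told apart over most of the libraries.

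Compared per length as TPM, which divides counts by transcript length and gives every library the same sum, the members spanned more than 3 orders of magnitude. In WT CD4+ TILs the median level was 5416 TPM for Gapdh, the lower-glycolysis dehydrogenase also used as a housekeeping gene, then 4310 for the enolase Eno1, 3864 for Ldha, which turns pyruvate into lactate, 2688 for the aldolase Aldoa, 2333 for the pyruvate kinase Pkm and 2007 for Tpi1. Regulators and hypoxia genes were far lower, with means of 90.6 ± 40.7 TPM for Hif1a, 37 ± 17 for the vasoactive peptide Adm, 30.5 ± 14.2 for the collagen prolyl hydroxylase P4ha2, 27.2 ± 8.38 for hexokinase Hk2 and 3.05 ± 0.368 for Pfkfb4 (SD, n = 4). Tumor CD45+CD4-CD8- cells held 32.6 ± 11.6 TPM of Pfkfb4 and 29.1 ± 10.2 TPM of Egln3, against 8.1 ± 0.771 TPM of Egln3 in WT CD4+ TILs.

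**Figure D1:**
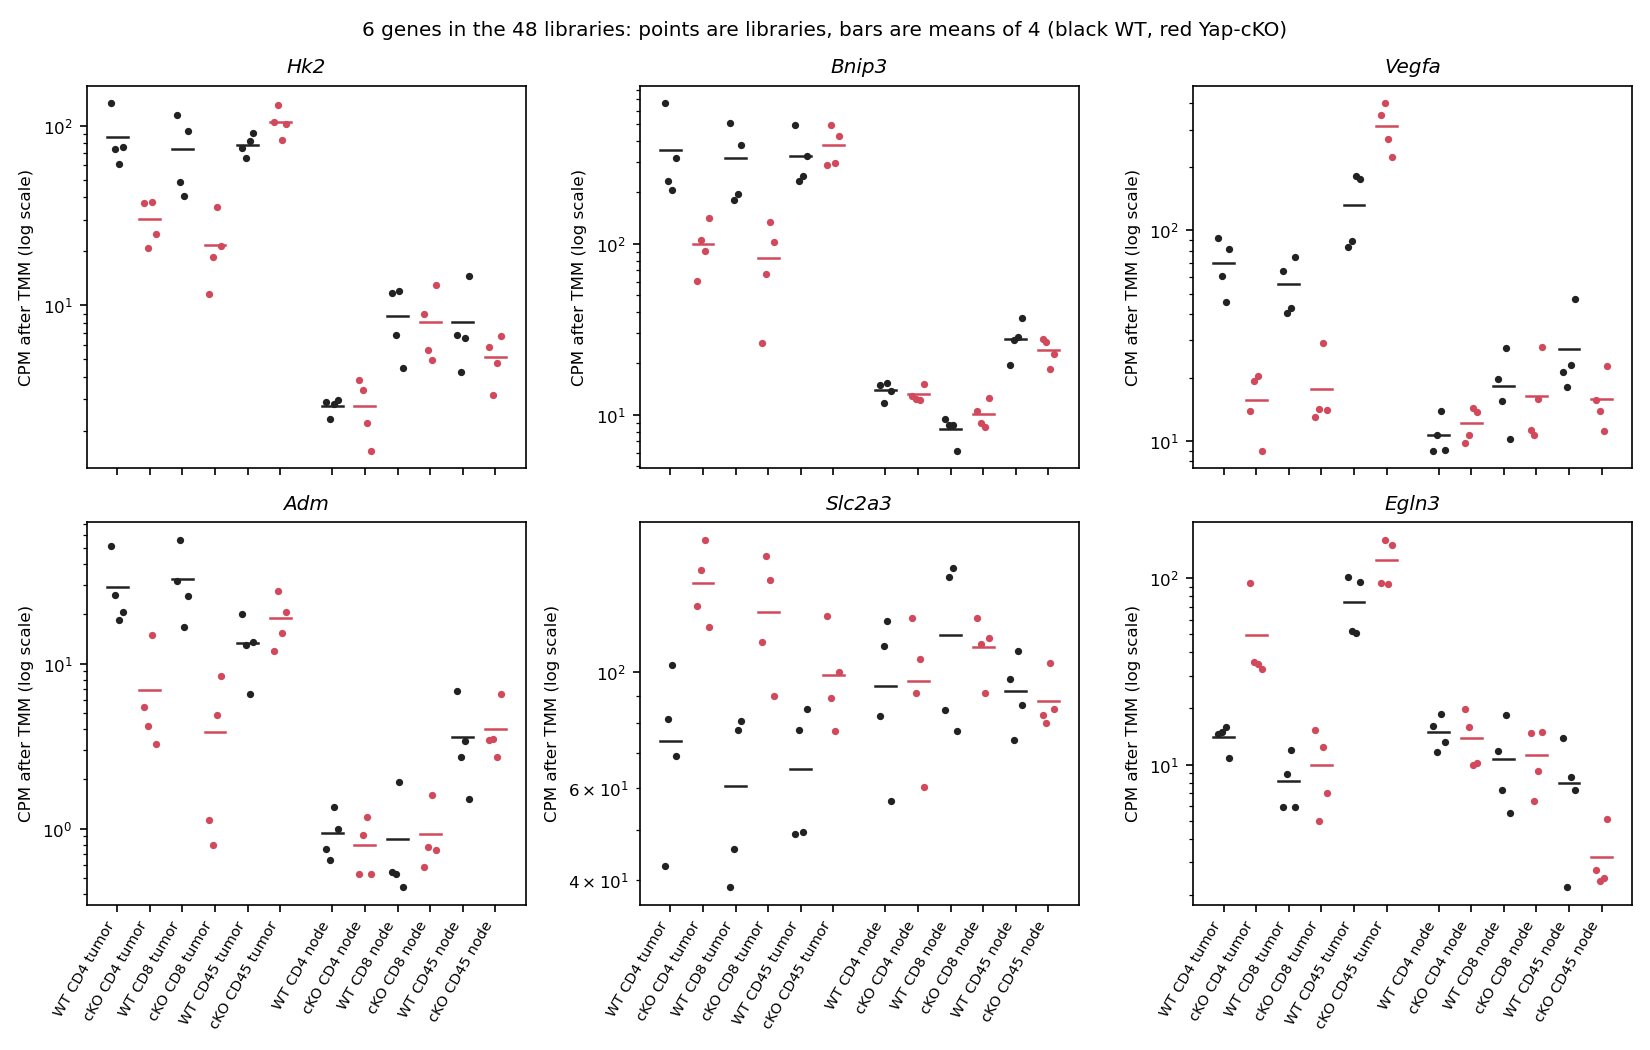
Levels of Hk2, Bnip3, Vegfa, Adm, Slc2a3 and Egln3 in CPM on a log axis, with 1 point per library and the mean of each of the 12 groups of 4 libraries. Hk2, Bnip3, Vegfa and Adm of Yap-cKO CD4+ and CD8+ TILs lie below their WT counterparts without overlap, whereas Slc2a3 lies above.

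The first comparison asked how deletion of Yap related to these genes in CD4+ TILs. In Yap-cKO CD4+ TILs, the hypoxia targets Vegfa, Bnip3, P4ha2 and Adm and the hexokinase Hk2 were lower than in WT, and the oxygen-sensing hydroxylase Egln3 was higher. No glycolytic enzyme other than Hk2 passed the test (edgeR quasi-likelihood, Benjamini-Hochberg adjusted over 14205 genes, with calls made where the adjusted p was under 0.05 and the absolute log2 difference above 1). Of the 33 members, 5 were called lower, where 6.66% of all genes tested were called lower, and 1 was called higher, where the background was 1.36%. The median log2 difference was -0.31 over the members and 0.14 over all genes tested, and 26 members had a negative value.

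Hk2 catalyses the first step of glycolysis and is the inducible hexokinase. It was at 133, 74.5, 61.1 and 76 CPM in WT CD4+ TILs and at 37.2, 20.9, 37.4 and 25.1 CPM in Yap-cKO, a log2 difference of -1.52 (SE 0.34, edgeR adjusted p = 0.0225). Every Yap-cKO library was below every WT library, and the highest WT value was replicate 1. Vegfa, which encodes the growth factor of blood vessels, was at 91.7, 60.9, 45.9 and 81.5 CPM in WT and 13.9, 19.3, 20.3 and 8.98 in Yap-cKO (log2 difference -2.17, SE 0.37, edgeR adjusted p = 0.00895). The gap between the groups was wider than the range within the Yap-cKO libraries.

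Bnip3, a mitochondrial protein of mitophagy, was at 664, 232, 206 and 320 CPM in WT and 60.4, 105, 90.5 and 142 in Yap-cKO (log2 difference -1.84, SE 0.44, edgeR adjusted p = 0.0284). P4ha2 was at 72.4, 31, 28 and 31.6 CPM in WT and 1.65, 6.44, 15.7 and 5.71 in Yap-cKO (log2 difference -2.44, SE 0.62, edgeR adjusted p = 0.0365). Adm was at 51.5, 26.1, 18.3 and 20.7 CPM in WT and 5.47, 4.17, 14.9 and 3.28 in Yap-cKO (log2 difference -2.05, SE 0.55, edgeR adjusted p = 0.0449). For all 3 genes WT replicate 1 was the highest library and the genotypes did not overlap. For P4ha2 and Adm, the Yap-cKO library nearest to WT was replicate 3.

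Egln3 moved the other way, at 14.6, 15, 15.9 and 10.9 CPM in WT and 94.5, 35.7, 34.8 and 32.6 in Yap-cKO (log2 difference 1.78, SE 0.38, edgeR adjusted p = 0.0189). Replicate 1 of Yap-cKO was the highest, and the other 3 still stood above all WT libraries. Hif1a, the factor that Egln1 and Egln3 act on, was at 200, 195, 206 and 353 CPM in WT and 1003, 739, 66.6 and 545 in Yap-cKO (log2 difference 1.25, SE 0.60, edgeR adjusted p = 0.226). The groups overlapped only through Yap-cKO replicate 3, the library that stood apart.

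The lower steps of glycolysis all had negative values, from -1.20 to -0.23 for 6 of 6 members, and none was called. Pgk1, the phosphoglycerate kinase, was at 2186, 1307, 1013 and 1038 CPM in WT and 355, 446, 920 and 669 in Yap-cKO, without overlap, and missed the threshold (log2 difference -1.20, SE 0.41, edgeR adjusted p = 0.102). Aldoa was at 3585, 2561, 2309 and 2063 CPM against 1015, 1107, 3669 and 1589, and Ldha was at 5303, 3805, 3620 and 3287 against 2485, 2153, 5433 and 3121. In both, Yap-cKO replicate 3 was the highest of the 8 libraries and the other 3 were below all WT libraries. Of the 33 members, 9 did not overlap between the genotypes, where 17.1% of all genes did not.

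Among transporters, Slc2a1, the basal glucose transporter, was at 241, 148, 139 and 158 CPM in WT and 133, 110, 255 and 120 in Yap-cKO. Slc2a3, the high-affinity neuronal-type glucose transporter, was at 42.6, 81.4, 103 and 69.1 against 134, 157, 179 and 122 (log2 difference 0.99, SE 0.32, edgeR adjusted p = 0.0847). The Slc2a3 groups did not overlap and those of Slc2a1 did. Slc16a3, the lactate exporter, was at 134, 184, 159 and 153 CPM against 133, 98.8, 273 and 70.3, and Ddit4, an inhibitor of mTORC1 induced by stress, was at 21, 60.3, 80.3 and 47.1 against 87.2, 111, 151 and 46. The genotypes overlapped in both.

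The count in CD4+ TILs changed when single libraries were left out, and the shares of all genes called in those fits are not given here. It was 15 (2 higher, 13 lower) without Yap-cKO replicate 3 and 5, all lower, without WT replicate 3, but 1 without WT replicate 1 or 2, 2 without WT replicate 4 or Yap-cKO replicate 2 or 4, and 3 without Yap-cKO replicate 1. The marker covariates were the mean log2 CPM over the genes of a list, not the sums. The melanoma mean moved with genotype (a share of 0.794 of its variance lay between the genotypes). With it as a covariate 0 members were called and 3 had an unadjusted p under 0.05, the median member value was 0.56, and P4ha2 turned to 0.65. The macrophage sum was 278 to 737 CPM in WT and 122 to 653 CPM in Yap-cKO CD4+ TILs, and the macrophage mean as a covariate also left 0 called. Libraries scaled on T-cell lineage genes in place of all genes gave 20 lower and 0 higher, where 25.3% of all genes were called lower on that scale, with a member median of -1.77 beside -1.15 over all genes. On that scale Egln3 was at 0.50 and Slc2a3 at -0.10, and relative to the median of all genes they were at 1.65 and 1.05.

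In CD8+ TILs the same question gave more members. The hexokinase Hk2, the phosphofructokinase Pfkl and 5 enzymes further down the pathway were lower in Yap-cKO, together with 5 of 7 hypoxia targets, and the glucose transporter Slc2a3 was higher. In all, 12 of 33 members were called lower, where 9.14% of 14121 genes were, and 1 was called higher, where 3.03% were. The median log2 difference was -0.96 over the members and 0.08 over all genes tested, and 16 members did not overlap between genotypes, where 21.8% of all genes did not.

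Of the 9 upper-glycolysis members 3 were called lower in CD8+ TILs, and 8 had a negative value. Hk2 was at 114, 48.3, 40.5 and 93.5 CPM in WT and 11.5, 18.6, 35.4 and 21.4 in Yap-cKO (log2 difference -1.86, SE 0.42, edgeR adjusted p = 0.0244). The groups came near each other at WT replicate 3 and Yap-cKO replicate 3 and did not overlap. Pfkl, the liver-type phosphofructokinase, fell by 1.28 on the log2 scale (SE 0.29, edgeR adjusted p = 0.0234), while the muscle and platelet types Pfkm and Pfkp were at -0.75 and -0.22 and were not called. Tpi1, which interconverts the triose phosphates, was at 2469, 1227, 1059 and 2361 CPM against 192, 655, 905 and 611 (log2 difference -1.67, SE 0.47, edgeR adjusted p = 0.0437), with Yap-cKO replicate 1 the lowest.

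Of the 6 lower-glycolysis members 4 were called, and all 6 were negative, from -1.64 to -0.78. Pgk1 was at 1866, 943, 756 and 1502 CPM in WT and 218, 432, 599 and 475 in Yap-cKO (log2 difference -1.64, SE 0.39, edgeR adjusted p = 0.0267). The mutase Pgam1, the enolase Eno1 and the pyruvate kinase Pkm fell by 1.47, 1.31 and 1.10 on the log2 scale, with edgeR adjusted p of 0.0317, 0.0407 and 0.0435. Each of these 4 had all Yap-cKO libraries below all WT libraries.

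Several enzymes lay close to the threshold on its other side. Aldoa was at 2577, 1487, 1500 and 2611 CPM in WT and 535, 1026, 1355 and 1007 in Yap-cKO (log2 difference -1.14, SE 0.34, edgeR adjusted p = 0.0528), and Gapdh had a log2 difference of -1.27 (edgeR adjusted p = 0.0541). Ldha was at 4146, 2374, 2294 and 4462 CPM against 1465, 1992, 2347 and 1788 (log2 difference -0.89, edgeR adjusted p = 0.0761). Aldoa and Gapdh did not overlap between the genotypes, and Ldha did, by Yap-cKO replicate 3. Hk1, the constitutive hexokinase, had a log2 difference of 0 (SE 0.23).

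Among hypoxia targets, Adm was at 31.9, 56.3, 16.7 and 25.6 CPM in WT CD8+ TILs and 1.13, 0.8, 4.91 and 8.47 in Yap-cKO (log2 difference -3.14, SE 0.73, edgeR adjusted p = 0.0255). P4ha2 was at 50.9, 32.3, 19.7 and 42.4 against 1.78, 2.97, 14 and 7.07 CPM (log2 difference -2.57, SE 0.60, edgeR adjusted p = 0.0256). These were the 2 members with the largest log2 differences here, and neither overlapped.

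Bnip3 was at 509, 180, 196 and 380 CPM against 26.5, 66.3, 135 and 102 (log2 difference -2.02, SE 0.52, edgeR adjusted p = 0.0327), and Vegfa was at 64.1, 40.7, 42.8 and 74.7 against 13, 14.2, 29.1 and 14.1 (log2 difference -1.75, SE 0.33, edgeR adjusted p = 0.0185). In each, Yap-cKO replicate 3 was the library nearest to WT. Ndrg1, a stress-responsive gene of differentiation, also fell (log2 difference -1.31, SE 0.31, edgeR adjusted p = 0.0273), while the collagen hydroxylase P4ha1 had a value of -0.60 (edgeR adjusted p = 0.0503). Ddit4 was at 14.2, 13.2, 27.2 and 27.8 CPM in WT and 20.4, 48.8, 24.4 and 13.5 in Yap-cKO, which overlapped.

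Of the transporters, Slc2a3 rose from 38.8, 45.9, 77.6 and 80.6 CPM in WT to 114, 167, 150 and 90.1 in Yap-cKO (log2 difference 1.02, SE 0.29, edgeR adjusted p = 0.0452), without overlap. When libraries were scaled on T-cell lineage genes the Slc2a3 difference was 4e-04, and relative to the median of all genes on that scale it was 1.12. Slc2a1 was at 176, 115, 101 and 171 against 113, 91, 113 and 84 CPM (log2 difference -0.58, edgeR adjusted p = 0.118), and Slc16a3 was at 77.6, 99.6, 99.3 and 194 against 29.5, 65.5, 86.8 and 27.5 CPM (log2 difference -1.26, edgeR adjusted p = 0.0669). Both overlapped between the genotypes.

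The oxygen-sensing members were not called in CD8+ TILs. Hif1a was at 177, 207, 150 and 116 CPM in WT and 315, 291, 159 and 211 in Yap-cKO (log2 difference 0.50, edgeR adjusted p = 0.217). Egln3 was at 5.9, 8.86, 11.9 and 5.88 against 15.3, 4.97, 12.4 and 7.07 CPM, so the difference seen in CD4+ TILs had no counterpart of that size here (log2 difference 0.20, SE 0.41, edgeR adjusted p = 0.756). Whether the CD4+ and CD8+ differences of Egln3 differ was not tested.

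The CD8+ count also changed with the libraries that entered, again without the shares of all genes called. It was 17 without WT replicate 3 and 15 without Yap-cKO replicate 3, but 7 without Yap-cKO replicate 1, 3 without Yap-cKO replicate 4, 2 without WT replicate 2, 1 without WT replicate 1 or 4, and 0 without Yap-cKO replicate 2, while the member median stayed between -1.13 and -0.75 and 19 to 22 members had an unadjusted p under 0.05. With the replicate number as a block 0 members were called in CD8+ TILs (19 at an unadjusted p under 0.05) and 3 in CD4+ TILs. The melanoma mean as a covariate left 0 called with a member median of -0.30, and 2 members at an unadjusted p under 0.05. The macrophage sum, 294 to 709 CPM in WT and 803 to 2130 CPM in Yap-cKO CD8+ TILs, was higher in the genotype with the lower members. The macrophage mean as a covariate left 0 called with a median of -1.42. Scaling on T-cell lineage genes gave 26 lower and 0 higher, where 40.3% of all genes were called lower, with a median of -2.21 beside -1.12 over all genes.

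**Figure D2:**
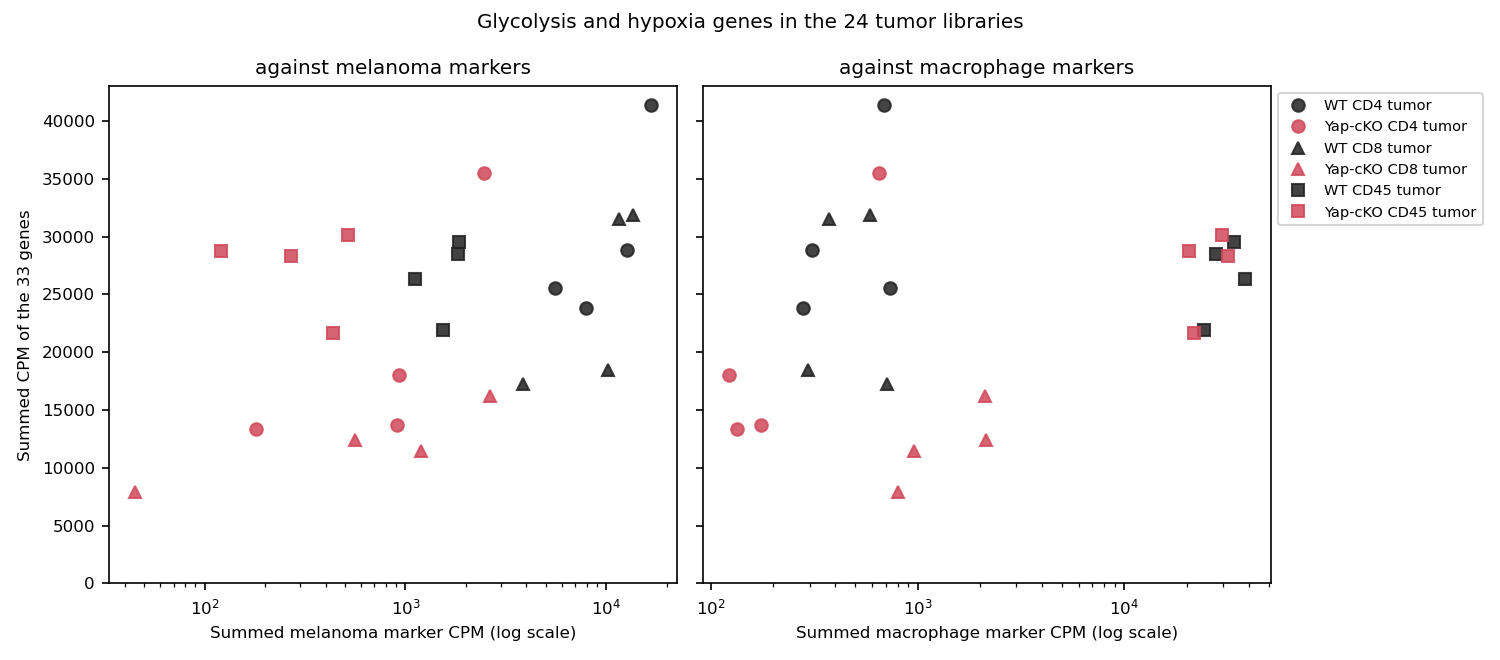
Summed CPM of the 33 members (vertical axis) against the summed CPM of 10 melanoma genes and of 12 macrophage genes (horizontal axes, log scale) in the 24 tumor libraries, with symbols for population and genotype. Member sums in CD8+ TILs are 17270 to 31903 CPM in WT with 3866 to 13555 CPM of melanoma RNA, and 7884 to 16187 CPM in Yap-cKO with 45.1 to 2639 CPM.

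The plot of member sums against marker sums shows the samples behind this. In WT CD4+ TILs the 33 members summed to 41352, 28877, 25594 and 23858 CPM, and the melanoma genes to 16730, 12706, 5550 and 7942 CPM. In Yap-cKO CD4+ TILs the member sums were 13365, 13686, 35469 and 18028 CPM beside 181, 908, 2453 and 926 CPM of melanoma RNA. Replicate 3 had the highest member sum and the highest melanoma sum of the Yap-cKO CD4+ TILs. It also had the highest macrophage sum (653 CPM) and T-cell lineage sum (10973 CPM) of that group. Its melanoma sum was below that of every WT library, whereas its member sum was above all but the highest WT library. Tumor CD45+CD4-CD8- cells had member sums of 21637 to 30155 CPM with 120 to 1843 CPM of melanoma RNA and 20511 to 38138 CPM of macrophage RNA. Of the variance of the melanoma covariate, shares of 0.794 in CD4+ and 0.628 in CD8+ TILs lay between the genotypes. The covariate fits above therefore cannot tell melanoma RNA and genotype apart, and the part of melanoma RNA in the T-cell differences was not tested.

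The CD4+ and CD8+ comparisons share no library, but per the study's methods both TIL populations were sorted from each tumor, so they are not independent of each other. Hk2, Vegfa, Bnip3, P4ha2 and Adm, 5 members in all, were called lower in both, where 4.67% of the 13718 genes tested in both were, and 4 of the 5 had the larger absolute value in CD8+ TILs. A negative value in both was found for 23 of 33 members and for 36.2% of all genes. The 6 that were positive in both, as were 47.7% of all genes, were Slc2a3, Hif1a, Egln3, Ddit4, Pfkfb3 and Hk1, whose value in CD8+ TILs rounds to 0.

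Tumor CD45+CD4-CD8- cells, which are not targeted by Cre as such, gave no called member of 33 with edgeR (13 at an unadjusted p under 0.05) and 1 with DESeq2. The member median was 0.26, against 0.01 over all genes tested, and 23 of 33 values were positive, while 7 members did not overlap between genotypes, where 11.6% of all genes did not. Vegfa was at 82.9, 88.7, 180 and 175 CPM in WT and 353, 400, 271 and 223 in Yap-cKO, without overlap (log2 difference 1.23, SE 0.30, edgeR adjusted p = 0.0768). Pfkfb3, the kinase that makes the activator of phosphofructokinase, had a value of 0.84 (SE 0.18, edgeR adjusted p = 0.0601).

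Members that were lower in Yap-cKO TILs had no such value in these cells. Hk2 was at 74.7, 66.3, 81.9 and 91.1 CPM in WT and 105, 130, 83.3 and 102 in Yap-cKO, Bnip3 at 495, 232, 251 and 327 against 289, 496, 298 and 428, and Adm at 20, 12.9, 6.56 and 13.6 against 12, 27.4, 15.3 and 20.6. Each of the 3 overlapped. Pgk1 was at 1057, 655, 776 and 931 CPM against 752, 784, 647 and 885, Ldha at 3942, 2731, 3439 and 3215 against 3506, 3572, 2516 and 3705, and the 6 lower-glycolysis members ranged from -0.21 to 0.82. The mean log2 CPM of macrophage genes, the main other component, did not separate the genotypes here (a share of 0.00522 of its variance), and that of melanoma genes did (0.85).

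In TDLNs no member was called between genotypes in any population, by edgeR or DESeq2. Hardly any gene was called there at all. With edgeR, 4 were higher and 2 lower of 12992 tested in CD4+ cells, and 1 and 1 of 12651 in CD8+ cells. In CD45+CD4-CD8- cells 2 were higher and 6 lower of 13432. At an unadjusted p under 0.05 there were 0 members in CD4+ cells, 0 in CD8+ cells and 2 in CD45+CD4-CD8- cells with edgeR, and medians were -0.16, -0.15 and -0.23. In CD4+ TDLN cells, Hk2 was at 2.88, 2.33, 2.83 and 2.97 CPM in WT and 3.85, 3.4, 2.22 and 1.55 in Yap-cKO. Bnip3 was at 9.43, 8.68, 8.73 and 6.17 CPM in WT and 10.5, 8.94, 8.48 and 12.5 in Yap-cKO CD8+ TDLN cells. The genotypes overlapped in both. Egln3 in CD45+CD4-CD8- TDLN cells had a value of -1.28 (SE 0.50, edgeR adjusted p = 0.998).

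**Figure D3:**
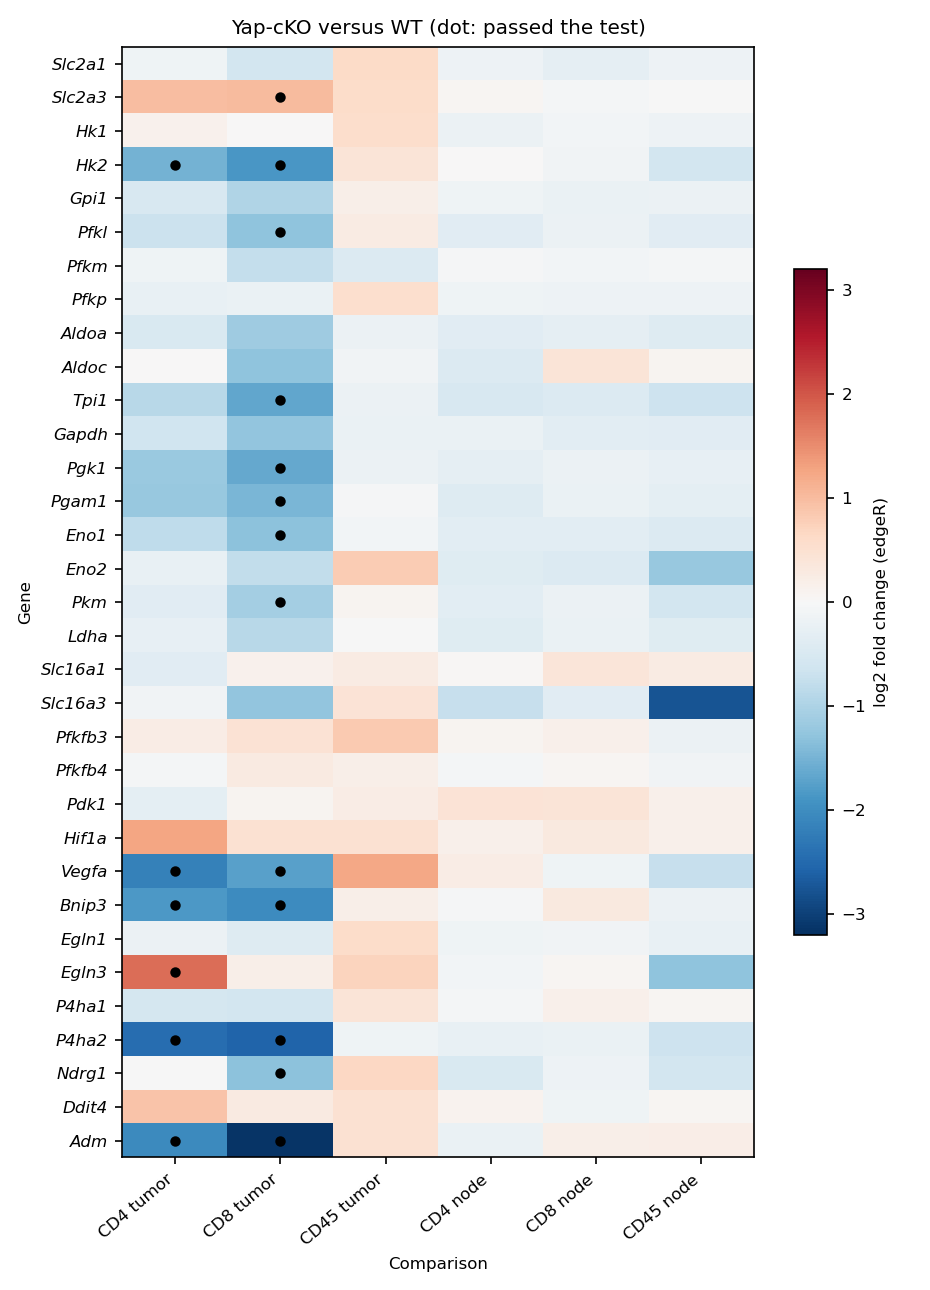
Log2 difference of Yap-cKO from WT (color scale) for the 33 members (vertical axis, by role) in the 6 combinations of population and tissue (horizontal axis), with a dot where the member passed the edgeR test. CD4+ TILs carry 6 dots, CD8+ TILs carry 13, and there are none in tumor CD45+CD4-CD8- cells or in TDLNs.

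Whether the genotype difference itself differed between tumor and TDLN was tested as an interaction. In CD4+ cells Vegfa passed, with a difference 2.40 lower on the log2 scale in the tumor than in the TDLN (SE 0.42, edgeR adjusted p = 0.014), 1 member of 33 where 1.15% of all genes were called lower. Vegfa was at 9, 10.7, 13.9 and 9.07 CPM in WT and 9.83, 10.7, 14.3 and 13.8 in Yap-cKO CD4+ TDLN cells, which overlapped, whereas the TIL values given above did not. Melanoma sums were 5550 to 16730 CPM in WT and 181 to 2453 CPM in Yap-cKO CD4+ TILs, and at most 16.7 CPM in CD4+ TDLN cells. No marker covariate entered the interaction fits, so melanoma RNA and this interaction cannot be told apart. DESeq2 called 4 members. Leaving out 1 library at a time gave 1 to 6, with 2 without WT CD4+ TIL replicate 3 and 6 without Yap-cKO CD4+ TIL replicate 3. For DESeq2 and these fits the shares of all genes called are not given here.

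For the other members the larger differences in TILs were not shown to differ from those in TDLNs. Egln3 in CD4+ cells had an interaction of 1.85 (SE 0.47, edgeR adjusted p = 0.0571). In CD8+ cells 0 members passed with edgeR, 10 had an unadjusted p under 0.05 and DESeq2 called 2, with a member median of -0.78 beside 0.05 over all genes. In CD45+CD4-CD8- cells 0 passed with edgeR, 11 had an unadjusted p under 0.05 and DESeq2 called 2. Of all genes, edgeR called 0 higher and 63 lower of 14937 in CD8+ cells, and 0 of 14871 in CD45+CD4-CD8- cells. The shares of all genes called by DESeq2 are not given here.

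A further test, added after the values had been seen, asked whether the genotype difference in the tumor differed between CD45+CD4-CD8- cells and the mean of the CD4+ and CD8+ TILs. Vegfa (3.18, SE 0.43, edgeR adjusted p = 0.00117), Adm (3.06, SE 0.76, edgeR adjusted p = 0.0372) and Hk2 (2.08, SE 0.43, edgeR adjusted p = 0.015) had a higher log2 difference in CD45+CD4-CD8- cells. These 3 of 33 members compare with 1.76% of all genes called in that direction, and 29 of 33 values were positive with a median of 0.89 beside -0.12 over all genes. The count was 13 without Yap-cKO CD4+ TIL replicate 3, 8 without WT CD8+ TIL replicate 3, 7 without Yap-cKO CD8+ TIL replicate 3, 5 without WT CD4+ TIL replicate 4, and 8 with DESeq2. The shares of all genes called in those fits are not given here, so a change of the members alone cannot be read from these counts. Libraries of different populations were treated as independent here, although per the study's methods both TIL populations were sorted from each tumor. Melanoma sums also differed between the genotypes, from 1118 to 1843 against 120 to 520 CPM in CD45+CD4-CD8- cells. In TILs they were 5550 to 16730 against 181 to 2453 CPM (CD4+) and 3866 to 13555 against 45.1 to 2639 CPM (CD8+). No marker covariate entered this fit, and the part of melanoma RNA was not tested.

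Members that catalyse or carry the same reaction were then compared with each other as shares of their summed TPM, described without a test. The share of Slc2a3 in the sum of Slc2a1 and Slc2a3 was 16, 24.3, 35.6 and 26.7% in WT CD8+ TILs and 37.9, 54.5, 50 and 40.9% in Yap-cKO, without overlap. In CD4+ TILs it was 11.1, 27.8, 33.2 and 24.8% against 41.3, 47.8, 32.1 and 43.1%, with Yap-cKO replicate 3 inside the WT range. Tumor CD45+CD4-CD8- cells had means of 10.8% and 10.6%.

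The share of Hk2 in the sum of Hk1 and Hk2 went the other way. It was 40.7, 21.4, 17.8 and 21.9% in WT CD4+ TILs and 13.2, 6.55, 10.9 and 10.9% in Yap-cKO, and 38.9, 15.9, 15.4 and 27% against 4.72, 7.41, 10 and 12.9% in CD8+ TILs. Neither pair of groups overlapped, and the means in tumor CD45+CD4-CD8- cells were 29.2% and 25.7%. The share of Pfkl among the phosphofructokinases Pfkl, Pfkm and Pfkp was 43.5, 43.8, 35.9 and 43.9% in WT CD8+ TILs and 23.1, 25.7, 31.8 and 24.7% in Yap-cKO, again without overlap.

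Slc16a3 exports lactate and Slc16a1 carries it in either direction. The share of Slc16a3 in their sum was 67.5, 73.8, 78.3 and 82.1% in WT CD8+ TILs and 30.1, 70.2, 69.7 and 49.7% in Yap-cKO, and 2 of the Yap-cKO libraries lay above the lowest WT library. Pkm is spliced with either of 2 exclusive exons, at chr9:59675029-59675195 in the M1 form and chr9:59675568-59675734 in the M2 form (mm10). The M2 form made up 92 to 98.4% of the TPM of both forms in every tumor library and 91.3 to 96.5% in every TDLN library.

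**Figure D4:**
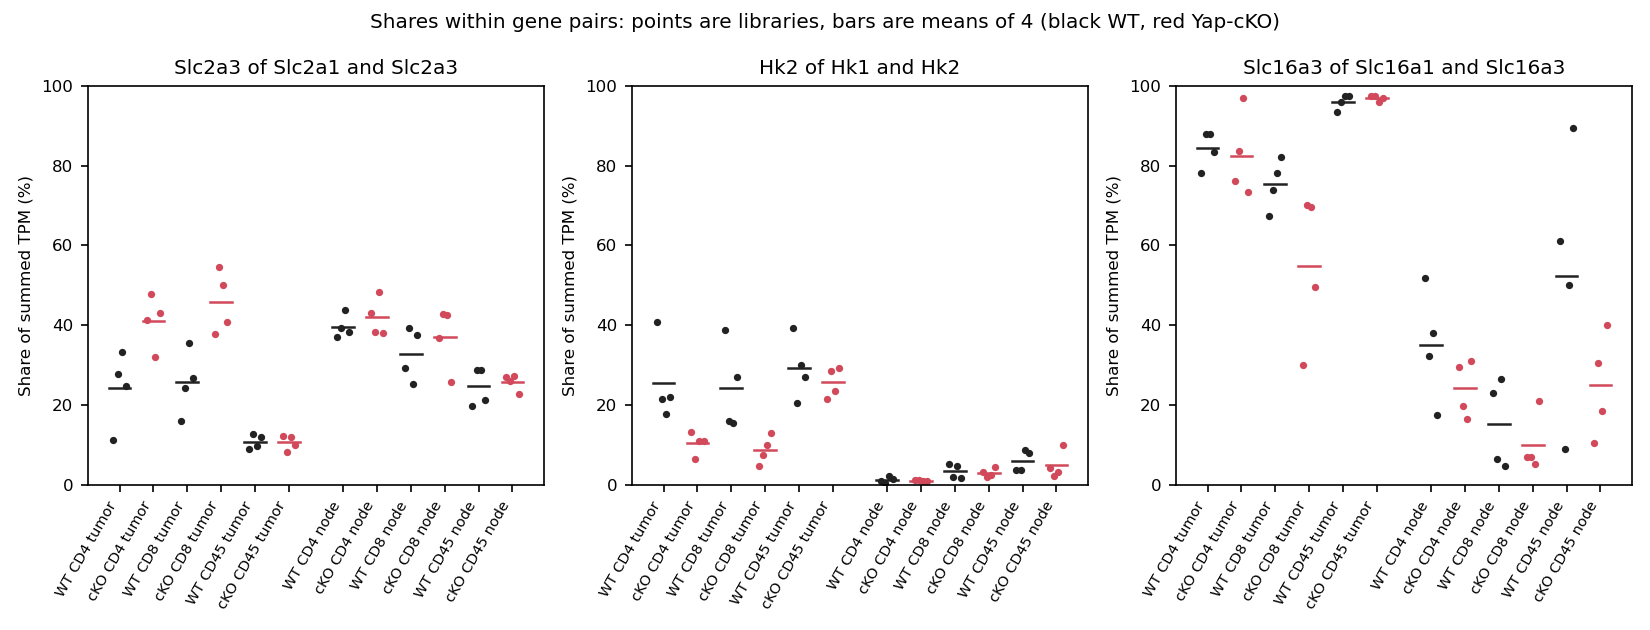
Share of Slc2a3 in Slc2a1 plus Slc2a3, of Hk2 in Hk1 plus Hk2 and of Slc16a3 in Slc16a1 plus Slc16a3, in percent of summed TPM, with 1 point per library and a bar at the mean of each group. The Slc2a3 share of CD8+ TILs is 16 to 35.6% in WT and 37.9 to 54.5% in Yap-cKO, and the Hk2 share is 15.4 to 38.9% and 4.72 to 12.9%.

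The tumor was compared with the TDLN within each genotype and population, to see how the members differ between the sites. In WT mice the median member was higher in the tumor in each population, and the number called differed between them. For CD4+ cells, 20 of 33 were called higher, where 22.9% of all genes were, and 3 lower, where 14.4% were (median 1.24 over members, -0.03 over all genes). For CD8+ cells, 16 were higher against a background of 22.5% and 2 lower against 15.2% (median 1.09, and -0.02 over all genes). For CD45+CD4-CD8- cells, 24 were higher against 21.9%, and none lower (median 1.79, and -0.08 over all genes).

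Hk2 rose the most in WT CD4+ cells, from 2.88, 2.33, 2.83 and 2.97 CPM in the TDLN to 133, 74.5, 61.1 and 76 in the tumor (log2 difference 5.04, SE 0.32, edgeR adjusted p = 4.38e-07). Adm rose from 0.75, 0.644, 1.36 and 0.989 CPM to 51.5, 26.1, 18.3 and 20.7 (log2 difference 5.02, SE 0.44, edgeR adjusted p = 3.54e-06). Bnip3 rose from 14.9, 11.7, 15.4 and 13.8 CPM to 664, 232, 206 and 320 (log2 difference 4.74, SE 0.40, edgeR adjusted p = 2.61e-06). All tumor libraries exceeded all TDLN libraries for these 3 genes.

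In WT CD8+ cells Bnip3 rose from 9.43, 8.68, 8.73 and 6.17 to 509, 180, 196 and 380 CPM (log2 difference 5.36, edgeR adjusted p = 5.6e-06). Adm rose from 0.544, 0.532, 1.93 and 0.441 to 31.9, 56.3, 16.7 and 25.6 CPM (log2 difference 5.35, edgeR adjusted p = 5.17e-05), and the brain-type aldolase Aldoc rose from 2.66, 1.54, 1 and 0.936 to 41.1, 23.2, 33 and 48.5 CPM (log2 difference 4.66, edgeR adjusted p = 1.61e-05). None of these overlapped. Aldoa rose in the same cells from 631, 813, 930 and 352 to 2577, 1487, 1500 and 2611 CPM, and Ldha had a log2 difference of 0.75 that did not pass (edgeR adjusted p = 0.16).

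In WT CD45+CD4-CD8- cells P4ha2 rose from 0.871, 0.548, 0.143 and 1.39 to 13.4, 6.03, 7.52 and 8.59 CPM (log2 difference 3.57, edgeR adjusted p = 0.000535). Tpi1 rose from 135, 67.6, 100 and 255 to 2021, 1299, 1533 and 1710 CPM (log2 difference 3.52, edgeR adjusted p = 0.000114), and Bnip3 from 19.5, 27.3, 28.4 and 36.7 to 495, 232, 251 and 327 CPM (log2 difference 3.5, edgeR adjusted p = 3.73e-05). The sites did not overlap for any of the 3. The TDLN cells of this gate were not the same mixture as those of the tumor. In WT their macrophage sum was 213 to 4193 CPM, against 24366 to 38138 CPM in the tumor libraries.

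A core of 15 members was called higher in the tumor in all 3 WT populations, namely Slc16a3, Hk2, Gpi1, Aldoa, Aldoc, Tpi1, Gapdh, Pgk1, Pgam1, Eno1, Pkm, Vegfa, Bnip3, P4ha2 and Adm. Of the 12781 genes tested in all 3, 12.4% were called higher in each. Slc2a3 was not among them, with values of -0.26 in CD4+, -0.88 in CD8+ and -0.53 in CD45+CD4-CD8- cells. Egln3 was higher in CD45+CD4-CD8- cells alone among the WT populations (log2 difference 3.19, edgeR adjusted p = 0.00053), from 13.8, 2.19, 8.54 and 7.33 to 102, 52.2, 50.6 and 95.5 CPM. In WT CD4+ and CD8+ cells its values were -0.01 and -0.33.

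The monocarboxylate transporter Slc16a1, the pyruvate dehydrogenase kinase Pdk1 and, in CD4+ cells, the bifunctional enzyme Pfkfb4 were lower in the WT tumor. Slc16a1 was at 174, 129, 241 and 165 CPM in the TDLN and 94.2, 64.2, 57.6 and 80.5 in the tumor for CD4+ cells (log2 difference -1.18, edgeR adjusted p = 0.0026, and 0.58 when scaled on T-cell lineage genes). Pdk1, which holds pyruvate back from the mitochondrion, was at 290, 389, 359 and 396 against 114, 105, 89.9 and 125 CPM (log2 difference -1.65, edgeR adjusted p = 8.51e-05, and 0.0066 when scaled on T-cell lineage genes). Pfkfb4 was at 17.8, 13.7, 13.5 and 10.3 against 3.34, 6.07, 5.57 and 3.22 CPM (log2 difference -1.53, edgeR adjusted p = 0.00231, and -0.02 on T-cell lineage scaling). The sites did not overlap for any of them in CPM.

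In WT CD8+ cells Slc16a1 had a log2 difference of -1.50 and Pdk1 of -1.27 (edgeR adjusted p = 0.000459 and 0.00288), which became 0.28 and 0.42 when scaled on T-cell lineage genes. That scaling gave 30 higher and 0 lower members in WT CD4+ cells and 29 and 0 in WT CD8+ cells, where 55.9% and 62% of all genes were called higher, and it moved the median of all genes to 1.57 and 1.70. Relative to those medians Slc16a1 stayed at -0.999 and -1.42 and Pdk1 at -1.57 and -1.29. The variance of the mean log2 CPM of melanoma and of macrophage genes lay almost entirely between the sites in WT T cells (shares of 0.971 to 0.992). With either as a covariate 0 members were called, so site and these marker levels cannot be told apart in this comparison.

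**Figure D5:**
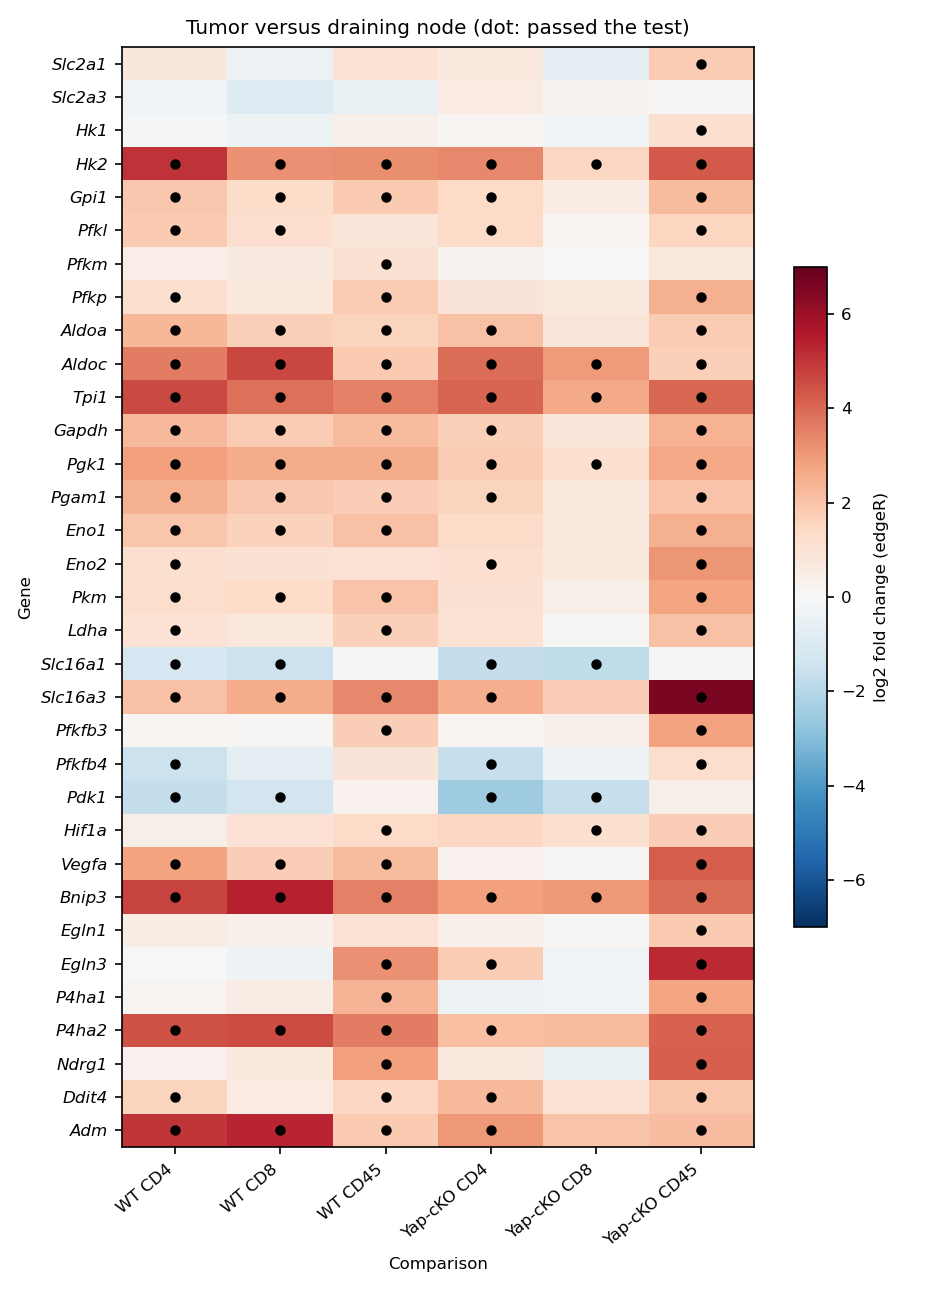
Log2 difference of tumor from TDLN (color scale) for the 33 members (vertical axis, by role) in the 3 populations of each genotype (horizontal axis), with a dot where the member passed the edgeR test. The WT columns hold 23 called members in CD4+ cells, 18 in CD8+ cells and 24 in CD45+CD4-CD8- cells, and Slc16a1 and Pdk1 are lower in the tumor in the T-cell columns, a direction that turns positive in WT when scaled on T-cell lineage genes and stays negative relative to the median of all genes on that scale (-0.999 and -1.42 for Slc16a1, -1.57 and -1.29 for Pdk1).

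In Yap-cKO mice the tumor comparison gave fewer members in CD8+ cells. There, 6 were called higher against a background of 10.9% and 2 lower against 5.0% (median 0.54, and 0.02 over all genes). In CD4+ cells, 16 were higher against 12.4% and 3 lower against 6.07% (median 1.33, and -0.04 over all genes). In CD45+CD4-CD8- cells, 29 were higher against 21.8% and none lower (median 2.24, and -0.09 over all genes). These comparisons share their TIL and TDLN libraries with the genotype comparisons above.

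Tpi1 had the largest difference in Yap-cKO CD4+ cells, from 106, 65.2, 49.1 and 31.9 CPM in the TDLN to 443, 677, 2420 and 1036 in the tumor (log2 difference 4.10, edgeR adjusted p = 0.00111). Aldoc rose from 3.61, 3.24, 3.02 and 3.09 to 23.6, 36.7, 88.6 and 52.3 CPM (log2 difference 3.89, edgeR adjusted p = 0.000372), and Hk2 from 3.85, 3.4, 2.22 and 1.55 to 37.2, 20.9, 37.4 and 25.1 CPM (log2 difference 3.39, edgeR adjusted p = 0.000422). The sites did not overlap. Vegfa, called in WT, had a value of 0.30 here (edgeR adjusted p = 0.561). Leaving out Yap-cKO CD4+ TDLN replicate 3 or 4 gave 12 calls in place of 19, and the shares of all genes called in those fits are not given here.

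In Yap-cKO CD8+ cells Bnip3 rose from 10.5, 8.94, 8.48 and 12.5 to 26.5, 66.3, 135 and 102 CPM (log2 difference 3.05, edgeR adjusted p = 0.000994). Aldoc rose from 2.1, 1.49, 1.78 and 2.73 to 5.64, 19.6, 25.1 and 13 CPM (log2 difference 2.98, edgeR adjusted p = 0.00153), and Tpi1 from 141, 80.9, 50.7 and 108 to 192, 655, 905 and 611 CPM (log2 difference 2.68, edgeR adjusted p = 0.00211). Tumor replicate 1 was the lowest tumor library in all 3 and still above the TDLN libraries. The count was 5 without Yap-cKO CD8+ TIL replicate 2, and the share of all genes called in that fit is not given here. Hif1a was also called higher, from 74.2, 141, 142 and 74 to 315, 291, 159 and 211 CPM (log2 difference 1.14, edgeR adjusted p = 0.03).

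In Yap-cKO CD45+CD4-CD8- cells Slc16a3 rose from 2.23, 4.5, 4.26 and 9.4 to 749, 534, 358 and 419 CPM (log2 difference 6.60, edgeR adjusted p = 8.58e-07), the largest difference of any member in any of the 6 tumor comparisons. Egln3 rose from 2.72, 2.38, 2.46 and 5.13 to 94.8, 161, 93.2 and 151 CPM (log2 difference 5.23, edgeR adjusted p = 3.97e-07), and Hk2 from 5.84, 3.18, 4.8 and 6.71 to 105, 130, 83.3 and 102 CPM (log2 difference 4.29, edgeR adjusted p = 3.48e-07). None of the 3 overlapped between the sites. In WT the same gate gave Slc16a3 values of 17.4, 2.06, 13.5 and 111 CPM in the TDLN, where replicate 4 also had the highest macrophage sum.

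Hk2, Aldoc, Tpi1, Pgk1 and Bnip3, 5 members in all, were called higher in the tumor in all 3 Yap-cKO populations, where 5.4% of the 12319 genes tested in all 3 were. Slc16a1 and Pdk1 were lower in Yap-cKO CD4+ (-1.66 and -2.46) and CD8+ cells (-1.75 and -1.61), and remained negative when scaled on T-cell lineage genes, at -1.37 and -2.16 in CD4+ and -1.29 and -1.21 in CD8+ cells.

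Populations were also compared within WT tissue, as CD45+CD4-CD8- cells against the mean of CD4+ and CD8+ cells. The libraries were treated as independent, although those of different populations may share an animal. In the tumor 7 members were higher, where 15.7% of all genes were, and 5 were lower, where 18.6% were. Pfkfb4 was at 52.5, 79.7, 65.6 and 98 CPM in CD45+CD4-CD8- cells and at no more than 6.07 CPM in any WT TIL library (log2 difference 4.10, edgeR adjusted p = 1.66e-08). Egln3 (2.79) and Pfkfb3 (2.35) came next, then Slc16a3 (1.44), Ndrg1 (1.39), Slc2a1 (1.34) and Vegfa (1.04). The lower members were P4ha2 (-2.13), Pfkm (-1.48), Slc16a1 (-1.33), the neuronal enolase Eno2 (-1.27) and Adm (-1.22). Melanoma sums were 5550 to 16730 CPM in WT CD4+ and 3866 to 13555 CPM in WT CD8+ TILs. In WT tumor CD45+CD4-CD8- cells they were 1118 to 1843 CPM. The part of melanoma RNA in these differences was not tested. Most glycolytic enzymes did not differ by a called amount, with Ldha at -0.16 and Aldoa at -0.08. The WT tumor CD45+CD4-CD8- libraries held 24366 to 38138 CPM of macrophage RNA.

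In the WT TDLN 4 members were higher in CD45+CD4-CD8- cells, where 14.0% of all genes were, and 9 were lower, where 11.2% were. Aldoc (2.28, edgeR adjusted p = 2.49e-05), Pfkfb4 (2.01), Adm (1.97) and Bnip3 (1.36) were the higher ones. Slc16a1 (-2.68, edgeR adjusted p = 1.43e-07), Pdk1 (-2.46) and Pfkm (-2.12) were the lowest of the 9, which also held P4ha1, Eno2, Ddit4, Egln1, Ldha and Hk1. Slc16a1 was at 31.5, 37.1, 36.8 and 31.3 CPM in CD45+CD4-CD8- cells and at 129 to 287 CPM in WT TDLN T cells, without overlap.

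Other genes of both pathways were taken from lists of 28 genes each. Between genotypes in CD4+ TILs, 2 of 24 tested further glycolysis genes were lower, namely the lactate dehydrogenase Ldhb (-1.92) and the transporter Slc16a7 (-1.85), and 2 of 25 further hypoxia genes, the lysyl hydroxylase Plod2 (-2.22) and the adenylate kinase Ak4 (-1.94), where 6.66% of all genes were lower. In CD8+ TILs, 3 of 24 and 7 of 25 were lower, led by Ldhb (-2.76), the phosphoglucomutase Pgm1 (-1.61) and the transporter chaperone Bsg (-1.19), and by the carbonic anhydrase Car9 (-2.83), the lipoprotein receptor Vldlr (-2.70) and Plod1 (-2.20), where 9.14% of all genes were lower. None was higher in either. In tumor CD45+CD4-CD8- cells none of 24 and none of 23 was called by edgeR, where 9 of all 13628 genes tested were called higher and 126 lower. In the WT tumor against the TDLN, 7 of 24 further glycolysis genes were higher and 3 lower in CD4+ cells, 5 and 3 of 24 in CD8+ cells, and 7 and 1 of 24 in CD45+CD4-CD8- cells. Of all genes, 22.9% were higher and 14.4% lower in CD4+ cells, and 22.5% and 15.2% in CD8+ cells. In CD45+CD4-CD8- cells 21.9% were higher, and 2505 of the 13898 genes tested were lower. For the further hypoxia genes the counts were 13 and 5 of 24, 12 and 5 of 25, and 13 and 4 of 24.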

How the data were processed

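The 48 libraries were prepared from sorted cells with SMART-Seq v4, which amplifies full-length cDNA and keeps no strand, and were sequenced as read pairs. Per the labels and the submitters' processing notes, reads were checked with FastQC, trimmed with Trimmomatic and quantified with Salmon 0.9.1 for mouse genome build mm10. The deposited tables held, for 112092 transcripts, expected counts, TPM (counts divided by length and scaled to a common sum within each library by the authors' tool) and an effective length score in bases. Of these, 111787 transcripts were matched by identifier to 34932 GENCODE M21 genes, and 0.0488 to 0.18% of counts per library were unmatched. Counts and TPM were summed per gene. For Aldoa, ENSMUSG00000030695.16 was used and the second entry of that symbol, ENSMUSG00000114515.2, was not. Reads of near-identical copies could be split, and Pgam1-ps2 held at most 1782 counts in a library.

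Expected counts were rounded and tested with edgeR 4.0.16 in R 4.3.3 (TMM, quasi-likelihood), on genes that reached 10 counts in 4 or more libraries of the fit. All 33 members passed this filter in every comparison. Adjusted p-values are Benjamini-Hochberg over all genes tested, and a gene was called at an adjusted p under 0.05 with an absolute log2 difference above 1. CPM are counts scaled by the total assigned to genes in the library after adjustment by its TMM factor. DESeq2 1.42.0, the replicate number as a block, marker or Y-linked expression as covariates, scaling on T-cell lineage genes, no count filter, transcript length offsets, a joint fit of all libraries and leaving out each library were the alternatives. Each covariate was the mean log2 CPM over the genes of its list. The fits were tested on simulated data with known changes. The members, the gene lists and the tests were chosen with earlier results of these data known. Libraries of the same number are not stated to come from 1 mouse. In no comparison between genotypes or between sites did all 4 same-numbered pairs correlate above 0.1, so the block was not part of the main fits. Pairs were not checked for the comparisons between populations, whose libraries were treated as independent. Values in every library are given for 13 members chosen by role and for the 3 called members with the largest absolute log2 difference of each comparison. No 2 libraries of a group held identical values.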

Additional observations from a re-analysis of the deposited data

Results flagged for a closer look

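In 25 of 396 sets of 4 libraries (33 members in 12 groups) the highest or lowest library lay farther from its neighbor, relative to the range of the group, than Dixon's 95% critical value for 4 samples. Chance gives about 1 in 20. Yap-cKO CD4+ TIL replicate 3 was such a library for 5 members, with 255 CPM of Slc2a1 (others 110 to 133), 498 CPM of Pfkl (187 to 225), 30.5 CPM of Pfkm (13.1 to 14.5), 50.4 CPM of Pdk1 (97.3 to 106) and 33.5 CPM of P4ha1 (77.3 to 84). In the same group, replicate 1 had 94.5 CPM of Egln3 (32.6 to 35.7). Yap-cKO CD8+ TIL replicate 3 had 226 CPM of Pfkl (116 to 126) and 29.1 CPM of Vegfa (13 to 14.2). In WT CD4+ TILs, replicate 1 had 72.4 CPM of P4ha2 (28 to 31.6) and replicate 4 had 353 CPM of Hif1a (195 to 206).

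Among tumor CD45+CD4-CD8- cells, Yap-cKO replicate 3 had 351 CPM of Pfkl (432 to 438) and 2516 CPM of Ldha (3506 to 3705), replicate 1 had 829 CPM of Pfkp (547 to 578) and replicate 2 had 42 CPM of Ddit4 (23.6 to 24.2). In WT, replicate 2 had 4104 CPM of Eno1 (5017 to 5165) and replicate 3 had 1.79 CPM of Eno2 (3.52 to 3.58).

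In the TDLN, WT CD45+CD4-CD8- replicate 4 had 111 CPM of Slc16a3 (2.06 to 17.4), 47 CPM of Vegfa (18.1 to 22.9) and 4.82 CPM of Pfkm (2.34 to 2.5), and Yap-cKO replicate 4 had 5.13 CPM of Egln3 (2.38 to 2.72). For CD4+ cells, WT replicate 2 had 292 CPM of Hk1 (166 to 183), and Yap-cKO replicate 1 had 134 CPM of Pfkl (91.9 to 94.2) and 1.95 CPM of Eno2 (4.16 to 4.32). For CD8+ cells, Yap-cKO replicate 4 had 241 CPM of Pdk1 (377 to 388) and WT replicate 3 had 1.93 CPM of Adm (0.441 to 0.544).

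The genotype difference itself differed between tumor and TDLN for Vegfa in CD4+ cells (interaction -2.40 on the log2 scale). In the test added after the values had been seen, it differed between tumor CD45+CD4-CD8- cells and TILs for Hk2 (2.08), Vegfa (3.18) and Adm (3.06). Neither fit held a marker covariate, and the part of melanoma RNA was not tested.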

How the results depend on the processing

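Counts are of the 33 members called, and among these alternatives a share of all genes called is given only for T-cell lineage scaling. The number of members called between genotypes in TILs depended on the model. With the replicate number as a block it was 3 in CD4+ and 0 in CD8+ TILs, and the block moved no other count by over 1.5 times (the added test of cell type by genotype gave 2). No same-numbered pair of CD8+ TILs correlated above 0.1. With the mean log2 CPM of melanoma, macrophage or Y-linked genes as a covariate the counts in CD4+ and CD8+ TILs were 0. With T-cell lineage scaling they were 20 and 26. In tumor CD45+CD4-CD8- cells it was 1 with DESeq2 and 1 without the count filter, and in CD45+CD4-CD8- TDLN cells 2 with the Y-linked covariate. DESeq2 gave 4, 2 and 2 for the interactions of CD4+, CD8+ and CD45+CD4-CD8- cells and 8 for the added test. Leaving out 1 library gave 1 to 15 in CD4+ TILs, 0 to 17 in CD8+ TILs, 1 to 6 and 0 to 1 for the CD4+ and CD8+ interactions, 12 to 21 and 5 to 10 for the tumor against the TDLN in Yap-cKO CD4+ and CD8+ cells, and 2 to 13 for the added test.

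For the tumor against the TDLN, the melanoma covariate left 0 members in WT CD4+, WT CD8+, WT CD45+CD4-CD8-, Yap-cKO CD4+ and Yap-cKO CD8+ cells and 8 in Yap-cKO CD45+CD4-CD8- cells, and the macrophage covariate left 0 in all 6. Those covariates, each the mean log2 CPM of its list, hold a share of 0.783 to 0.996 of their variance between the sites. T-cell lineage scaling gave 29 in WT CD8+ and 16 in Yap-cKO CD8+ cells. On that scale 62% of all genes were called higher in WT CD8+ cells, and 16.6% higher and 1.4% lower in Yap-cKO CD8+ cells.

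Changes of sign were followed for the called members between genotypes and in the interactions, for the 3 called members with the largest difference in the other comparisons, and for T-cell members called lower in the tumor than in the TDLN. They were, with the melanoma covariate, P4ha2 in CD4+ TILs between genotypes (0.65), and for the tumor against the TDLN Hk2 (-0.57), Adm (-4.39), Bnip3 (-2.44) and Pfkfb4 (1.30) in WT CD4+, Bnip3 (-0.71) and Adm (-2.83) in WT CD8+, P4ha2 (-5.26) and Tpi1 (-0.38) in WT CD45+CD4-CD8-, and Tpi1 (-1.01) and Slc16a1 (2.20) in Yap-cKO CD4+ cells. With the macrophage covariate they were Slc16a1 in WT CD8+ (0.0694) and Yap-cKO CD4+ cells (1.59), Aldoc (-2.40) and Tpi1 (-0.0416) in Yap-cKO CD8+ and Slc16a3 (-11.85) in Yap-cKO CD45+CD4-CD8- cells. With T-cell lineage scaling they were Slc16a1 (0.58) and Pdk1 (0.0066) in WT CD4+ and Slc16a1 (0.28) and Pdk1 (0.42) in WT CD8+ cells. Members that were not called also changed sign on that scale, such as Slc2a3 in CD4+ TILs between genotypes (0.99 to -0.10), Hif1a in CD8+ TILs (0.50 to -0.84), and Slc2a3 in WT CD4+ (-0.26 to 1.18) and Pfkfb4 in WT CD8+ cells (-0.60 to 1.12) for the tumor against the TDLN. Relative to the median of all genes on that scale these kept their sign, at 1.05, 0.285, -0.39 and -0.59 in that order. The causes were not tested. The depth limits statements about Adm and P4ha2 in the TDLN, which lay near 3 counts in some libraries.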
